A study of Mus musculus with 4 samples.

Results

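The heme synthesis enzymes are 8 mouse genes taken in pathway order, Alas1, Alas2, Alad, Uros, Urod, Cpox, Ppox and Fech. They were chosen by pathway membership and symbol and not by a measured value, though earlier results of these data were known. They are 8 of the 45232 genes in the count files. All 8 passed the filter on low counts, among 15591 genes tested. The pathway has a further step between Alad and Uros whose enzyme is not in the list and was not analysed here.

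Heme is an iron-holding ring that carries oxygen in hemoglobin and electrons in cytochromes, and in granulocytes it sits in the active site of myeloperoxidase and in the phagocyte oxidase. Its synthesis begins in the mitochondrion, where an aminolevulinate synthase joins glycine and succinyl-CoA, continues in the cytosol through the porphyrinogen intermediates, and ends in the mitochondrion, where ferrochelatase inserts iron. The synthase is the controlled step: Alas1 encodes the form used by most cells and is repressed by heme, whereas Alas2 encodes the form of erythroid cells, whose translation is governed by iron.

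RNA was sequenced from leukemic granulocyte-macrophage progenitors (L-GMPs), the cells that propagate acute myeloid leukemia driven by the MLL-AF9 fusion. There were 2 miR-99 KD libraries, labelled as knocked down for the microRNA miR-99, and 2 Scr (scrambled control) libraries, each from a different secondary recipient mouse. In both groups the cells carried MLL-AF9 and gave libraries by SMARTer amplification of Trizol LS RNA. They were sorted when the animals died, by a gate that the labels give as CD34+ CD16/32+ Sca-1+ c-Kit+, GFP+ and tdTom+. The labels used here do not give the recipients' strain or age, how the knockdown construct was expressed, or which colour marked it. The p-values therefore rest on the spread between secondary recipient mice at a single end point, which need not carry independent leukemias. The day of death could differ between the mice.

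Total gene counts were 42674407 and 42529111 in the miR-99 KD libraries and 38458519 and 41870314 in the Scr libraries. Of the genes behind the sort, Kit, Cd34 and Fcgr3 were abundant in every library, with 232 to 482 CPM (counts scaled to a common total of gene counts), whereas Ly6a, which encodes Sca-1, had 4 to 8 counts per library. Sca-1 message was thus almost absent from cells that the labels give as Sca-1+, and the reason was not tested. The Scr 1 library stood apart: it had a count above 0 for 28573 genes, against 21372 to 24038 in the other libraries, and its olfactory receptor genes summed to 51.9 CPM, against 4.78 to 14.95 CPM. Fold changes of the 8 genes and medians of the lists are therefore given with and without it. A fit without it has 1 Scr library, so it measures no spread between Scr mice. An exact permutation test of 2 libraries against 2 cannot give a p below 0.33, so tests were taken from edgeR's quasi-likelihood fit over all genes tested, with Benjamini-Hochberg adjustment.

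Members of the miR-99 family share 1 seed, bases 2 to 8 of the mature strand, which pairs with messages; the mature sequences are shown because this seed decides which messages they can pair with. They are given 5′ to 3′ from RefSeq (GRCm38.p6), with the seed in capitals. The loci are chr16:77598940-77598961 (plus strand) for miR-99a, chr17:17830194-17830215 (plus strand) for miR-99b and chr9:41531437-41531458 (plus strand) for miR-100.
mmu-miR-99a-5p: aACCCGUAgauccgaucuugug
mmu-miR-99b-5p: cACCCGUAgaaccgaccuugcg
mmu-miR-100-5p: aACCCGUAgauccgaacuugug
The 7-base match to this seed, TACGGGT on the message strand, was found in no annotated 3′ UTR of the 8 heme synthesis genes. Across the genome, 299 of 21186 genes with a 3′ UTR hold it, or 1.41%. The letters say nothing of sites of other kinds, and the level of miR-99 itself was not measured by these libraries.

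Heme synthesis genes were expressed in every library, and none of the 8 passed the test between miR-99 KD and Scr. Of the log2 fold changes (miR-99 KD over Scr), 4 were positive and 4 negative, with a median of 0.06, beside −0.01 over all genes tested. edgeR called 0 members at an adjusted p under 0.05, and 0 of 15591 genes tested, a background of 0%. By an unadjusted p under 0.05 there were also 0 members, where 2.66% of all genes lay higher and 5.23% lower in miR-99 KD. DESeq2 called 0 members, with 1.67% of all genes called, and limma-voom called 0 members and 0 of 15591 genes. Without Scr 1, edgeR called 1.85% of all genes and 0 members.

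The groups did not overlap for 3 of the 8 genes on the scaled values. Alad and Urod were higher in both miR-99 KD libraries than in both Scr libraries, an arrangement that 18.9% of all genes had. Ppox was lower in both, as were 25.3% of all genes. Read against these shares, 2 and 1 of 8 genes are no result about the pathway.

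**Figure D1:**
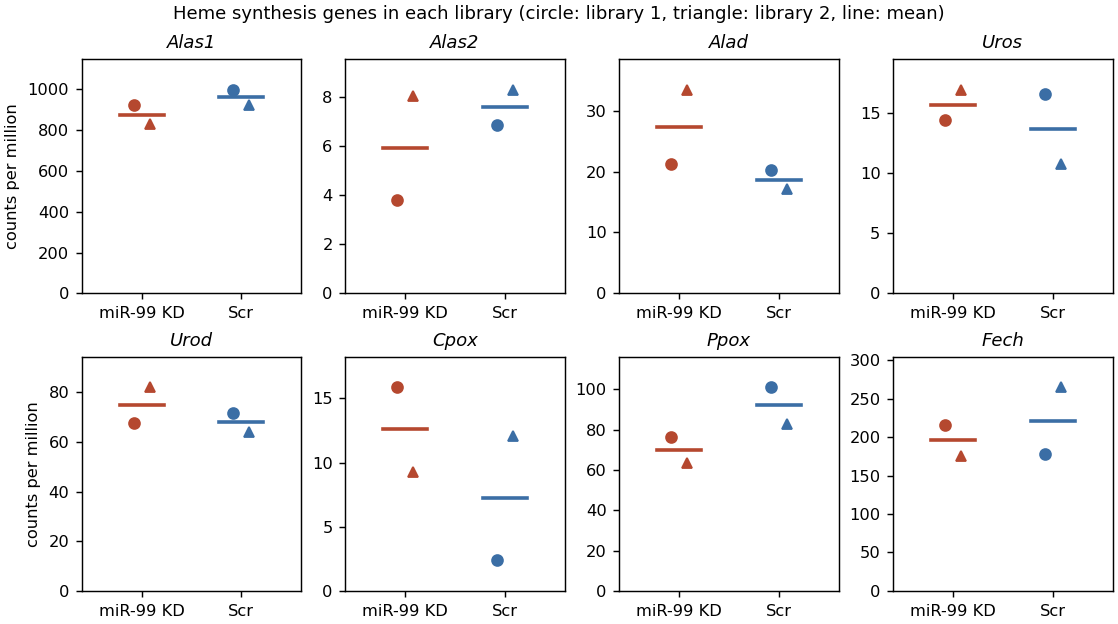
CPM of each heme synthesis gene, with 1 panel per gene in pathway order, each on its own linear axis. Points are libraries and lines are group means, with miR-99 KD left of Scr. Read by the axes, Alas1 has the highest values in all 4 libraries. Cpox has 1 low point, Scr 1, at 2.44 CPM.

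**Figure D2:**
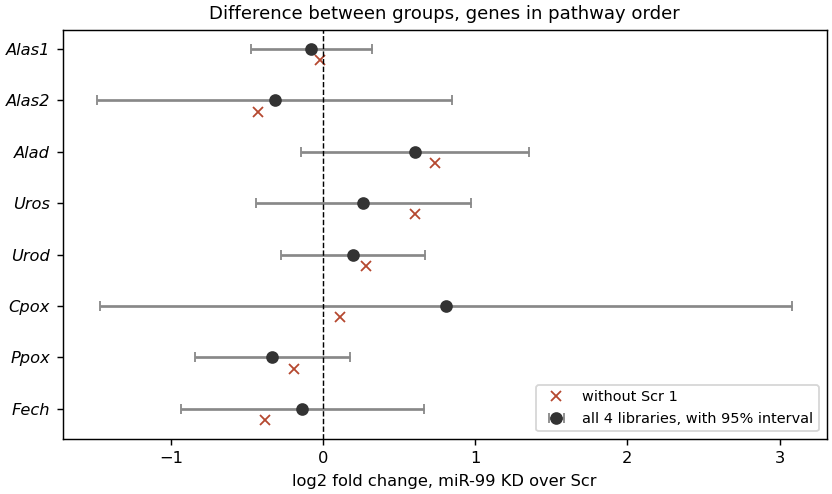
Log2 fold change of miR-99 KD over Scr for each gene with its 95% interval from edgeR, for all libraries and without Scr 1. Every interval over all libraries includes 0, and the widest is that of Cpox.

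The pathway's first step was carried mostly by Alas1 message. Alas1, the synthase of most cell types and the target of feedback by heme, had 923 and 829 CPM in miR-99 KD, against 999 and 922 CPM in Scr. The groups overlapped, miR-99 KD 1 lying just above Scr 2. The mean was 876 ± 66.5 CPM in miR-99 KD, against 961 ± 54.0 CPM in Scr (SD, n = 2 each). The log2 fold change was −0.08 ± 0.15 (SE), with an edgeR adjusted p of 0.886. Its interval, a fold of 0.720 to 1.25, was the narrowest of the 8 genes, and without Scr 1 the log2 fold change was −0.02. Behind each value stood 35271 to 39402 counts, so counting error was small beside the difference between mice. Alas1 lies at chr9:106233455-106248654 (GRCm38, minus strand), where 465 bases of its exons overlap the antisense gene 4930500F10Rik.

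Per length, Alas1 was the most abundant of the 8 messages by a wide margin. It had 150 and 134 CPM per kilobase of exon in miR-99 KD, against 162 and 149 in Scr, where the median gene tested had 4.75 and 4.16 in miR-99 KD and 4.30 and 4.86 in Scr. On the plain CPM scale it made up 68.9% and 68.1% of the summed CPM of the 8 genes in miR-99 KD, against 71.6% and 66.7% in Scr. The sum itself was 1339 and 1218 CPM in miR-99 KD, against 1396 and 1383 CPM in Scr. On this scale it was lower in both miR-99 KD libraries, but with the TMM scaling used for the tests it was 1382 and 1228 CPM in miR-99 KD, against 1305 and 1426 CPM in Scr, and the groups overlapped. On plain CPM with Alas1 left out the sum was 416 and 389 CPM in miR-99 KD, against 397 and 460 CPM in Scr, and the groups overlapped.

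**Figure D3:**
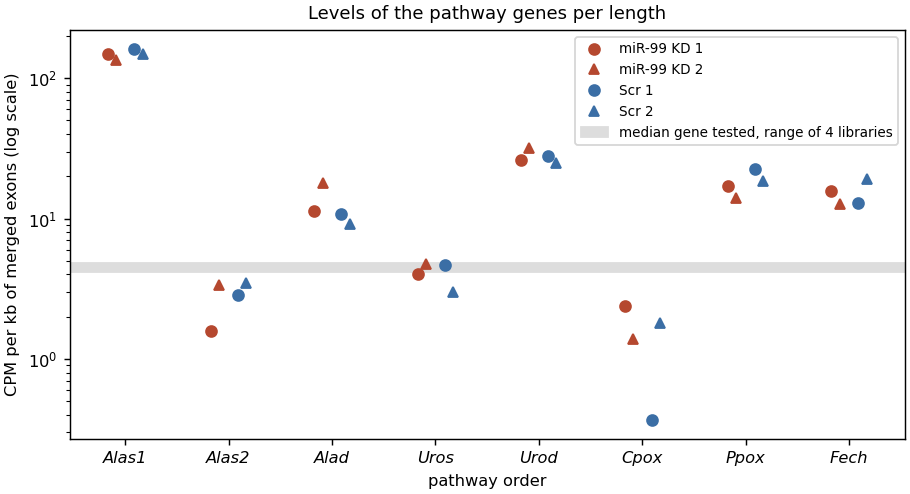
Level per length (CPM per kilobase of merged exon, log axis) of each gene in pathway order, by library, miR-99 KD left of Scr. A band gives the range over the 4 libraries of the median gene tested. Alas1 stands 1st with a mean of 149, and Cpox last with 1.49.

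Alas2, the erythroid synthase on the X chromosome, was present at a low level in both groups. It had 162 and 342 counts in miR-99 KD, against 264 and 348 counts in Scr, or 3.8 and 8.04 CPM in miR-99 KD against 6.86 and 8.31 CPM in Scr. A single library, miR-99 KD 1, was low, and the other miR-99 KD library lay between the Scr libraries. The mean was 5.92 ± 3.0 CPM in miR-99 KD, against 7.59 ± 1.02 CPM in Scr (SD, n = 2 each). The log2 fold change was −0.32 ± 0.44 (SE; 95% interval −1.48 to 0.85), with an edgeR adjusted p of 0.843. It was −0.43 without Scr 1 and 0.17 without miR-99 KD 1. Alas2 occupies chrX:150547375-150570638 (GRCm38, plus strand) and shares 311 exonic bases with Apex2 on the other strand. Its counts over these bases are uncertain if strand was not used in counting. Ambiguous reads were a separate class, 0.98% to 1.21% of entries per library, and were left out.

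Alas2 contributed little of the synthase message. Its share of the summed Alas1 and Alas2 level, per length, was 1.05% and 2.43% in miR-99 KD, against 1.74% and 2.26% in Scr. The ratio of Alas1 to Alas2 per length was 94.7 and 40.1 in miR-99 KD, against 56.6 and 43.2 in Scr. Both groups thus spanned overlapping ranges, with miR-99 KD on both sides of Scr.

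Across the 4 libraries Alas2 had the same order as the summed globin genes, except between Scr 2 and miR-99 KD 2. The 4 adult globin genes Hba-a1, Hba-a2, Hbb-bs and Hbb-bt, the main products of red cell precursors, summed to 45.7 and 117 CPM in miR-99 KD, against 72.0 and 76.5 CPM in Scr. The globin sum was 12.05 and 14.6 times the Alas2 CPM in miR-99 KD, against 10.5 and 9.20 times in Scr. The other erythroid genes had another order: 17 of them, without the globins and Nfe2, summed to 8.06 and 13.003 CPM in miR-99 KD, against 25.4 and 43.2 CPM in Scr. Of the 14 of these that could be tested, 12 were lower in both miR-99 KD libraries and 8 were lower by an unadjusted p under 0.05, beside 25.3% and 5.23% of all genes. The groups overlapped for Alas2. In bulk libraries, fewer cells of a type and less RNA per cell cannot be told apart, and the part of erythroid cells in the Alas2 level was not tested.

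Stretches of Alas2 that are known to be read by regulators are shown because its message is set apart from Alas1 by them. The promoter stretch comes from RefSeq (GRCm38.p6), chrX:150547225-150547374, plus strand, and its capitals mark TTATCT, the reverse complement of AGATAA, a site form read by GATA factors. The leader stretch lies in the 126-base 5′ leader of an Alas2 transcript (GENCODE, GRCm38), and its capitals, which start at base 90 of that leader, mark a match to the loop of an iron-responsive element, which binds iron regulatory proteins.
Alas2 promoter: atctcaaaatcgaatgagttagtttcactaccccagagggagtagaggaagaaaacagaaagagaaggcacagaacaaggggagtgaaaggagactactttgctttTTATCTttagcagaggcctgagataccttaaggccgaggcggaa
Alas2 leader: tctttggttCGTCCTCAGTGCagggcaaca
For comparison, the Alas1 promoter (chr9:106247907-106247934, minus strand) is shown around CGCATGCG, the palindromic site form of NRF1, a factor of genes for mitochondrial proteins, in capitals.
Alas1 promoter: gcacccaaggCGCATGCGcggcggtcac
The site CGCATGCG starts 194 bases before 1 of the 2 RefSeq starts of Alas1, and this stretch lies inside the annotated span of the gene. The window of the other start does not hold the site. CGCATGCG is in 1.75% of 27025 gene promoters, taken as the 250 bases before the start. AGATAA, searched on both strands, is in 11.4% of them, and among the matched members it was found for Alas2 alone. The letters of the iron-responsive loop were searched on the message strand as C and, 5 bases on, CAGTGN. They are in the 5′ leader of 2609 of 21200 genes, or 12.3%. Among the 8 genes these letters were in leaders of Alas2, Uros and Fech. Pairing of the stem around the loop was not examined, so a match of letters does not show an iron-responsive element.

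The enzymes of the cytosol, Alad, Uros and Urod, had positive fold changes, none of which passed the test. Alad, the dehydratase that condenses aminolevulinate to porphobilinogen, had 21.3 and 33.4 CPM in miR-99 KD, against 20.3 and 17.1 CPM in Scr. Both miR-99 KD libraries were higher than both Scr libraries, by little in miR-99 KD 1 and by more in miR-99 KD 2. The mean was 27.4 ± 8.6 CPM in miR-99 KD, against 18.7 ± 2.23 CPM in Scr (SD, n = 2 each). Its log2 fold change of 0.61 ± 0.28 (SE; 95% interval −0.14 to 1.36) had an edgeR adjusted p of 0.661, and was 0.74 without Scr 1. The interval runs from a fold of 0.904 to 2.56, so a doubling cannot be told from no difference in these libraries. Alad lies at chr4:62509169-62519918 (GRCm38, minus strand).

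Uros, uroporphyrinogen III synthase, had 14.4 and 16.95 CPM in miR-99 KD, against 16.6 and 10.7 CPM in Scr. Only Scr 2 lay below the rest, and the groups overlapped. The mean was 15.7 ± 1.8 CPM in miR-99 KD, against 13.7 ± 4.17 CPM in Scr (SD, n = 2 each). Its log2 fold change was 0.26 ± 0.26 (SE) with an edgeR adjusted p of 0.787, and without Scr 1 the log2 fold change was 0.61. Uros lies at chr7:133686243-133710072 (GRCm38, minus strand).

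Urod, the decarboxylase that turns uroporphyrinogen into coproporphyrinogen, had 67.7 and 82.1 CPM in miR-99 KD, against 71.8 and 64.0 CPM in Scr. On plain CPM the groups overlapped, and after scaling by trimmed mean of M values (TMM) both miR-99 KD libraries were higher. The mean was 74.9 ± 10.2 CPM in miR-99 KD, against 67.9 ± 5.54 CPM in Scr (SD, n = 2 each). The log2 fold change was 0.20 ± 0.18 (SE; 95% interval −0.28 to 0.67), with an edgeR adjusted p of 0.771, and 0.28 without Scr 1. Urod lies at chr4:116989965-116994413 (GRCm38, minus strand). Per length it was the next most abundant message after Alas1, with 26.1 and 31.7 CPM per kilobase in miR-99 KD, against 27.7 and 24.7 in Scr.

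Of the enzymes that finish heme in the mitochondrion, Cpox had the widest spread between libraries. Cpox, the oxidase that makes protoporphyrinogen, had 677 and 395 counts in miR-99 KD, against 94 and 504 counts in Scr. That is 15.9 and 9.29 CPM in miR-99 KD, against 2.44 and 12.04 CPM in Scr. Scr 1 was low and Scr 2 lay between the miR-99 KD libraries, so the groups overlapped: the Scr libraries differed 4.92-fold and the miR-99 KD libraries 1.71-fold. The mean was 12.6 ± 4.65 CPM in miR-99 KD, against 7.24 ± 6.78 CPM in Scr (SD, n = 2 each). The log2 fold change was 0.81 ± 0.85 (SE; 95% interval −1.47 to 3.08), with an edgeR adjusted p of 0.794. Without Scr 1 it was 0.11, and without Scr 2 it was 2.54. By its mean over the 4 libraries Cpox was the lowest of the 8 genes per length, although Alas2 was lower in miR-99 KD 1. It had 2.38 and 1.39 CPM per kilobase in miR-99 KD, against 0.367 and 1.81 in Scr.

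The Cpox promoter is shown because it holds a GATA site form, as that of Alas2 does. It is 150 bases just upstream of the gene's RefSeq start (GRCm38.p6, chr16:58670058-58670207, plus strand), and the capitals mark TTATCA, the reverse complement of TGATAA.
Cpox promoter: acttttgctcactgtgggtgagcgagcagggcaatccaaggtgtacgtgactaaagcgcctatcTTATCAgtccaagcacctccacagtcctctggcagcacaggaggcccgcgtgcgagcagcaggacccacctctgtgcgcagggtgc
TGATAA, on either strand, is in 9.21% of gene promoters, and one of the 2 RefSeq windows of Uros holds it too. Of other motifs searched on both strands, CACGTG (6.86% of promoters) was in windows of Alad, Uros and Urod, and GGGCGG (35.4%) in windows of Alas1, Alas2, Alad, Uros and Urod. The Ppox window held none of the 5 motifs, and promoters matched for 7 of the 8 genes. Cpox lies at chr16:58670292-58717636 (GRCm38, plus strand), with 204 exonic bases shared with Gpr15 on the other strand.

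Ppox, the oxidase that makes protoporphyrin, was the member with lower values in both miR-99 KD libraries. It had 76.6 and 63.5 CPM in miR-99 KD, against 101 and 83.0 CPM in Scr. The gap between the groups was narrower than the spread within Scr. The mean was 70.0 ± 9.23 CPM in miR-99 KD, against 92.0 ± 12.8 CPM in Scr (SD, n = 2 each). Its log2 fold change of −0.33 ± 0.19 (SE; 95% interval −0.84 to 0.18) had an edgeR adjusted p of 0.701, and was −0.19 without Scr 1. Ppox lies at chr1:171275990-171281186 (GRCm38, minus strand). Its exons share 791 bases with B4galt3 on the other strand, so its counts are uncertain where strand was not used.

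Fech, ferrochelatase, which puts iron into protoporphyrin, had 216 and 176 CPM in miR-99 KD, against 178 and 265 CPM in Scr. Scr 2 was the highest library, and Scr 1 lay between the miR-99 KD libraries. The mean was 196 ± 28.7 CPM in miR-99 KD, against 221 ± 61.6 CPM in Scr (SD, n = 2 each). The log2 fold change was −0.14 ± 0.30 (SE; 95% interval −0.94 to 0.67), with an edgeR adjusted p of 0.901. Its sign depended on which library was left out: it was −0.38 without Scr 1, 0.32 without Scr 2 and 0.055 without miR-99 KD 2. Fech lies at chr18:64452914-64490251 (GRCm38, minus strand), and its long 3′ UTR of 5243 bases holds repeats. Transcripts of 180 other genes align to its transcript over at least 300 bases at 90% identity or more. Reads without a unique alignment were a separate class, 19.3% to 23.6% of entries per library, and were left out. The count of Fech is therefore uncertain over these repeats.

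By level per length the order was Alas1, Urod, Ppox, Fech, Alad, Uros, Alas2 and Cpox, with means over the 4 libraries of 149, 27.6, 17.9, 15.1, 12.3, 4.10, 2.81 and 1.49 CPM per kilobase. Ppox and Fech were neighbours whose library values overlapped, with 16.96 and 14.1 for Ppox and 15.6 and 12.7 for Fech in miR-99 KD, and 22.4 and 18.4 for Ppox and 12.8 and 19.1 for Fech in Scr. They change places if the longest transcript is taken as the length. Alad overlapped Fech and Ppox, with 11.4 and 17.9 in miR-99 KD against 10.8 and 9.14 in Scr. Uros, Alas2 and Cpox lay close to or below the median gene tested. Uros had 4.03 and 4.74 in miR-99 KD against 4.65 and 2.999 in Scr, and Alas2 had 1.58 and 3.35 in miR-99 KD against 2.86 and 3.46 in Scr, so the ranges of these neighbours overlapped in part.

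As with Cpox, 7 other listed genes were low in Scr 1, and as many were low in miR-99 KD 2. Called low here is a scaled value under 0.5 times the lowest of the other libraries. That held in Scr 1 for 1 of the 8 members and for 7 of the 82 tested genes of the heme and iron lists (8.54%), against 5.34% of all genes tested. In miR-99 KD 2 it held for 0 members and for 7 of the 82 genes (8.54%), against 4.33% of all genes. Glrx5, a mitochondrial glutaredoxin for iron-sulfur clusters and the listed gene whose pattern was nearest to that of Cpox (distance 0.24 on centred log2 CPM over 4 libraries), had 62.1 and 42.1 CPM in miR-99 KD, against 10.3 and 58.8 CPM in Scr. Hccs, which attaches heme to cytochrome c, had 75.3 and 58.3 CPM in miR-99 KD, against 19.7 and 68.7 CPM in Scr. Pgrmc2, a heme-binding membrane protein, had 39.5 and 27.3 CPM in miR-99 KD, against 8.66 and 35.8 CPM in Scr. Iscu, Fdx1, Flvcr1 and Cox11 were the others; they, Hccs and Pgrmc2 were chosen after their values were seen. Whether the quality of Scr 1 set these values was not tested.

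**Figure D4:**
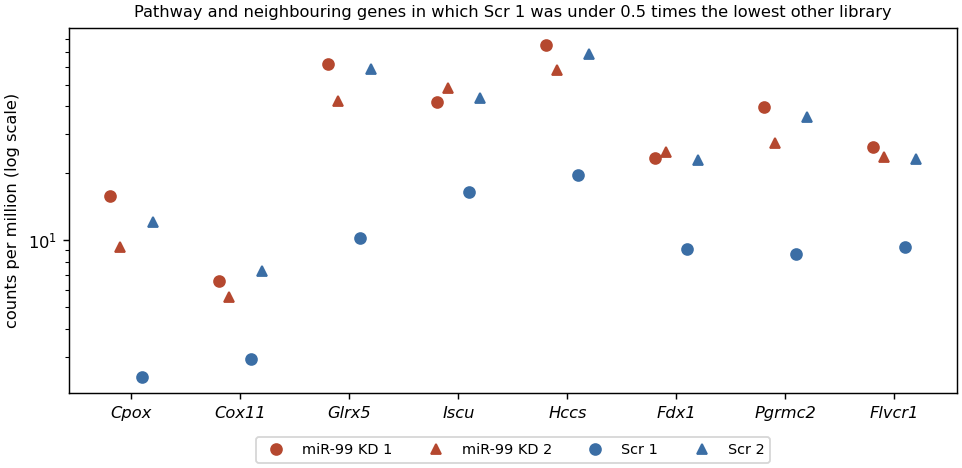
CPM (log axis) of Cpox and of the 7 listed genes that were low in Scr 1, with 1 point per library and miR-99 KD left of Scr. Scr 1 is the lowest point for each gene.

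The nearest listed gene to each member, by Euclidean distance of centred log2 CPM over 4 libraries among 152 listed genes, was found as a description. Alas1 was nearest to Fdx1l (0.06), Alas2 to Mcpt8 (0.41), Alad to Pcbp2 (0.20) and Uros to Nkg7 (0.12). Urod was nearest to Isca1 (0.04), Ppox to Cox15 (0.15) and Fech to Slc25a37 (0.23), the carrier known as mitoferrin that brings iron into mitochondria. Over 4 libraries a short distance arises easily for genes that hardly vary.

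Genes around the pathway gave few differences. None of the genes in these or the marker lists passed an edgeR adjusted p under 0.05. DESeq2 called 12, of which 1, Mpo, is in a heme or iron list. Of the 16 partners of the synthase and carriers of heme precursors, all tested, 9 had positive and 7 negative fold changes, with a median log2 of 0.04 (0.02 without Scr 1). Of these, 1 was lower in miR-99 KD by an unadjusted p under 0.05 and 0 were higher, beside 5.23% and 2.66% of all genes. The lower gene was Slc6a9, a glycine carrier, with 3 and 0 counts in miR-99 KD against 12 and 16 counts in Scr. Pgrmc1, which binds heme and ferrochelatase, had 86.7 and 118 CPM in miR-99 KD, against 159 and 146 CPM in Scr, a log2 fold change of −0.52 ± 0.20 (edgeR adjusted p = 0.634).

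Among the genes of iron supply, Tfrc, the transferrin receptor that brings iron into cells, had 154 and 199 CPM in miR-99 KD, against 114 and 130 CPM in Scr. Both miR-99 KD libraries were higher, with a log2 fold change of 0.58 ± 0.21 (edgeR adjusted p = 0.627). Pcbp1, an iron chaperone, had 152 and 156 CPM in miR-99 KD, against 86.0 and 115 CPM in Scr (log2 fold change 0.66 ± 0.24, edgeR adjusted p = 0.621). Of the 13 iron uptake and storage genes tested, of 14 listed, 2 were higher and 0 lower by an unadjusted p under 0.05. The shares over all genes were 2.66% and 5.23%. The median log2 fold change was −0.03, and 0.08 without Scr 1. Of the 16 iron-sulfur cluster genes, 11 had positive and 5 negative fold changes (median log2 0.22, and 0.13 without Scr 1). By an unadjusted p under 0.05, 0 passed in either direction, beside 7.89% of all genes.

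Heme breakdown and export had a negative median log2 fold change, −0.35 over 9 tested genes of 10 (−0.33 without Scr 1). Hmox1, heme oxygenase 1, which opens the heme ring and is induced by heme, had 15.5 and 10.1 CPM in miR-99 KD, against 29.5 and 24.5 CPM in Scr. Both miR-99 KD libraries were lower, with a log2 fold change of −1.01 ± 0.29 and an edgeR adjusted p of 0.583. It was the 1 gene of this list lower by an unadjusted p under 0.05, with 0 higher, beside 5.23% and 2.66% of all genes. Blvrb, a biliverdin reductase, had 13.97 and 17.1 CPM in miR-99 KD, against 12.3 and 8.0 CPM in Scr (log2 fold change 0.68 ± 0.27, edgeR adjusted p = 0.644). In the list of heme a and cytochrome c genes, 6 of the 8 tested had positive fold changes (median log2 0.20, and 0.08 without Scr 1). By an unadjusted p under 0.05, 0 passed, beside 7.89% of all genes. Cox15, a heme a synthase, had a log2 fold change of −0.46 ± 0.17 (edgeR adjusted p = 0.634).

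Among 11 tested regulators of the pathway, 5 had positive and 6 negative fold changes (median log2 −0.08, and −0.03 without Scr 1). Nfe2l2, a factor of oxidative stress genes such as Hmox1, had 96.1 and 122 CPM in miR-99 KD, against 86.1 and 74.5 CPM in Scr (log2 fold change 0.50 ± 0.18, edgeR adjusted p = 0.627). It was the 1 regulator that was higher by an unadjusted p under 0.05, with 0 lower, beside 2.66% and 5.23% of all genes. Ppargc1a, the coactivator that raises Alas1 in liver, had 1 and 9 counts in miR-99 KD, against 54 and 16 counts in Scr, at the limit of what these libraries can show.

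Among myeloid proteins that use heme, Mpo, the myeloperoxidase of azurophil granules, had 2313 and 4714 CPM in miR-99 KD, against 713 and 503 CPM in Scr. Both miR-99 KD libraries were far higher, with a log2 fold change of 2.59 ± 0.40. The edgeR adjusted p was 0.421, and DESeq2 gave an adjusted p of 5.50e-06. Without Scr 1, which leaves 1 Scr library, the log2 fold change was 2.87. The same list holds Alox5, an arachidonate lipoxygenase whose iron is not held in heme and which is thus no heme protein. It had 18.96 and 15.2 CPM in miR-99 KD, against 51.8 and 32.3 CPM in Scr (log2 fold change −1.23 ± 0.28, edgeR adjusted p = 0.507). Over the 9 tested genes of this list, 2 were higher and 1, Alox5, lower by an unadjusted p under 0.05, beside 2.66% and 5.23% of all genes. The median log2 was 0.07, and 0.21 without Scr 1.

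The lists of granulocyte maturation genes and of cell type markers differed from each other in direction. All but 1 of 18 granulocyte genes had positive fold changes (median log2 1.47, and 2.12 without Scr 1), and 13 were higher by an unadjusted p under 0.05, beside 2.66% of all genes. All 10 tested genes of iron-recycling macrophages were negative (median log2 −0.81), but only 1, Vcam1, was lower by an unadjusted p under 0.05, with 0 higher, beside 5.23% and 2.66% of all genes. Without Scr 1, 8 of the 10 were negative, with a median of −0.48. Vcam1, an adhesion molecule, had 201 and 137 CPM in miR-99 KD, against 476 and 430 CPM in Scr. Of the 19 tested erythroid genes 15 were negative (median log2 −1.66, and −1.85 without Scr 1), and 8 were lower by an unadjusted p under 0.05, beside 5.23% of all genes. Mast, basophil and eosinophil markers had a median log2 of 0.38 over 7 tested genes, with and without Scr 1. The medians of 3 other lists moved toward or past 0 when Scr 1 was left out. List medians with another library left out are not given here. The megakaryocyte median was −0.48 over 5 genes and 0.04 without Scr 1, and the lymphoid median −0.84 over 6 and −0.23 without it. The stromal median of −0.58 over 7 genes turned to 0.99 without it. The part of these cells, or of maturation of the leukemic cells, in the values of the heme synthesis genes was not tested.

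**Figure D5:**
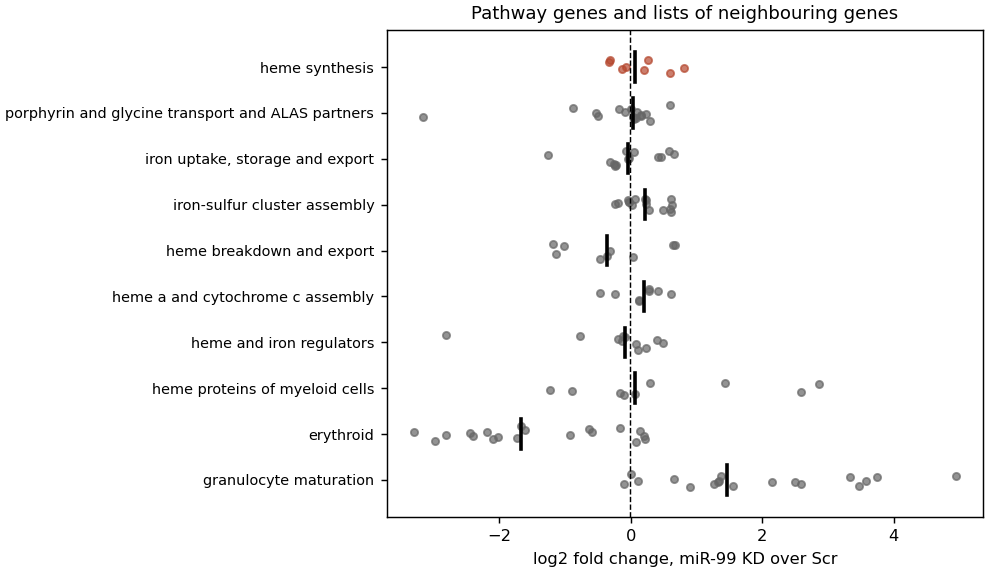
Log2 fold change of miR-99 KD over Scr for each tested gene of each list (points) with the list's median (bar), over all 4 libraries. The heme synthesis genes lie around 0 with a median of 0.06, between the erythroid genes (median −1.66) and the granulocyte genes (median 1.47).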

How the data were processed

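The authors deposited whole-number read counts per Ensembl gene for each library, in 4 files. STAR, Picard, HTSeq and DESeq2, with genome build mm9, are named per the submitters' processing notes; versions, annotation release and strand setting: not given in the sources used here. Entries naming no gene held 43.7% and 46.6% of all deposited counts in miR-99 KD and 49.7% and 43.7% in Scr, and were left out. Symbols came from GENCODE M21 (GRCm38) and matched 44585 of 45232 gene IDs; its coordinates and lengths are on GRCm38, not on the build that was counted.

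Counts were tested with edgeR 4.0.16 (R 4.3.3): filterByExpr with a minimum count of 10, TMM scaling, quasi-likelihood fit of miR-99 KD against Scr, adjustment over 15591 genes. DESeq2 1.42.0 and limma-voom (limma 3.58.1) were alternatives, as were other scalings, other filters, each library left out, and a replicate block. Errors of fold changes are standard errors with 95% intervals from the fit. The fitting script was tested on simulated data. Level per length is CPM divided by kilobases of merged exon. The members and lists were chosen with earlier results of these data known. Genes named are the 8 members, the 2 genes of lowest p per list, the globins and the nearest listed gene of each member; the further genes low in Scr 1 were chosen after their values were seen. SMARTer amplification can add to differences between libraries, and whether duplicate reads were removed is not given.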

Additional observations from a re-analysis of the deposited data

How the results depend on the processing

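No heme synthesis gene was called under any of the 12 alternatives, and 5 of the 8 kept the sign of their log2 fold change in all of them. The exceptions came with a library left out: Fech was 0.32 without Scr 2 and 0.055 without miR-99 KD 2, Alas2 was 0.17 without miR-99 KD 1, and Alas1 was 0.048 without miR-99 KD 2. With a library left out, Fech ran from −0.38 to 0.32, Alas2 from −0.90 to 0.17 and Alas1 from −0.11 to 0.048. Each fit with a library left out has 1 library in a group, so it measures no spread within that group. With each library left out in turn, the members' median log2 fold change ran from 0.046 to 0.27, the highest without miR-99 KD 1. The number at an unadjusted p under 0.05 ran from 0 to 1: Cpox without Scr 2, with a log2 fold change of 2.54 and an edgeR adjusted p of 0.282, or Alad without miR-99 KD 1, at 0.94 and 0.307. In those fits 13% and 15.3% of all genes lay under that p, in either direction, beside 7.89% with all libraries. The log2 fold change of Cpox ran from 0.11 to 2.54 over the alternatives, that of Alad from 0.30 to 0.94 and that of Ppox from −0.43 to −0.16. Over all genes the number called was 0 in the edgeR fit, 23 with upper-quartile scaling, 9 without the filter and 261 with DESeq2, and ran from 0 to 294 with a library left out, the most without Scr 1. Of the genes of the other lists, 12 were called by DESeq2, 8 of them in the granulocyte list. The mean Alas2 share of the synthase message was 1.22% with the longest transcript as length, against 1.87% with merged exons. The replicate numbers are shared by the labels but nothing says that they pair mice: deviations of same-numbered libraries correlated at −0.43 over 15591 genes, and a fit with the replicate block called 0 genes, with a median of 0.06 for the members. The crossed pairing, chosen after seeing the data, called 28 genes, 6 of them in the other lists, and put 1 member at an unadjusted p under 0.05, beside 11.9% of all genes. With 2 mice per group, the upper ends of the members' intervals ran from a fold of 1.13 (Ppox) to 8.46 (Cpox). The lower ends ran from a fold of 0.358 (Alas2) to 0.904 (Alad). For each gene, differences within its own interval remain possible.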
